A study of Homo sapiens with 9 samples.

Results

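Hep3B, an established human liver cancer line, was kept under hypoxia for 6 h with a compound labelled DHE or with DMSO, its solvent, and polyA RNA was sequenced. The comparison described here takes the 6 libraries whose titles carry a replicate number, out of 9 libraries in the series: DMSO replicates 1 to 3 and DHE replicates 1 to 3. The remaining 3 libraries belong to a dose set and were not used. Both groups were hypoxic, so each difference lies between DHE and solvent within hypoxia, and no library shows the cells in normal oxygen. All libraries come from 1 line. The labels name neither the DHE concentration of the replicated libraries nor the oxygen level, and they do not say whether the replicates were separate cultures. The p-values therefore speak only to the variation among these libraries, part or all of which could be technical. The series asks how DHE acts on liver cancer cells under hypoxia.

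Cells in low oxygen stop degrading the alpha subunits of the hypoxia-inducible factors (HIF), which then pair with ARNT, bind a short core sequence in promoters and enhancers, and switch on genes for glycolysis, blood vessel growth, matrix remodelling and lipid storage. Liver cancer cells also carry the secretory programme of the hepatocyte, with abundant mRNA for albumin, clotting factors, complement and apolipoproteins. Ligands of the TGF-beta family, Wnt ligands and the YAP coactivator with its TEAD partners set the growth and differentiation state of these cells and feed back on the genes of their own pathways.

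The 6 libraries held 26997916 to 36267227 expected counts, RSEM's estimate of the reads of each gene, and 16195 to 17117 genes had a count. A gene at 0 counts may still lie at up to 3 counts, which is 0.0827 to 0.111 CPM (counts scaled to library size) depending on the library; such limits cover counting error only. Genes that define a hepatocyte line were all measured, among them ALB, AFP, APOA1, TTR and GPC3. The genes for peptidylarginine deiminases (PADI1, PADI2, PADI3, PADI4 and PADI6) had at most 18 counts in a library and were not tested. Markers of other cell types were scored as summed CPM in each library. Of 14 leukocyte markers, MS4A1, NKG7 and TYROBP had no count in any library and PTPRC at most 4, and their sum was 138 to 151 CPM in DMSO and 85.4 to 97.8 CPM in DHE, with 3 of 7 tested markers lower (CD68, CD74 and LYZ) and 0 higher. The 13 fibroblast and stellate markers summed to 103 to 107 CPM in DMSO and 130 to 138 CPM in DHE, with 3 of 7 tested markers higher (1 by limma on log2(TPM + 1), where TPM is a share of the transcripts corrected for length) and with ACTA2 and DCN at 0 counts throughout. Sums of the 12 endothelial markers overlapped between groups (30.7 to 32.4 against 27.7 to 31.3 CPM), with KDR, ERG and EMCN at 0 counts throughout, and 1 of the 2 tested was lower (0 without DMSO replicate 1, DMSO replicate 3 or DHE replicate 3). The 10 cholangiocyte markers summed to 899 to 970 CPM in DMSO and 973 to 1096 CPM in DHE, with 4 of 9 tested markers higher and 0 lower. When 1 library was left out 1 to 3 were higher (2 without DMSO replicate 1, DMSO replicate 3 or DHE replicate 3, and 1 without DMSO replicate 2). The part of these markers in the results below was not tested.

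The number-1 libraries of both groups stood apart. Measured as chi-square per gene, the distance of DHE replicate 1 was 30.9 to replicate 2 and 36.6 to replicate 3, which were 5.61 apart, and DMSO replicate 1 differed by 14 and 15.8 from the other DMSO libraries, which were 9.12 apart. Among genes that averaged 20 CPM or more, those highest in DHE replicate 1 against the other DHE libraries were RN7SL1 and RN7SL2, the RNA of the signal recognition particle, MALAT1, a nuclear noncoding RNA, and the ribosomal RNA genes RNA28S5 and RNA18S5. RN7SL1 stood at 64.0 CPM in DHE replicate 1 against 5.51 and 3.64 CPM in replicates 2 and 3, and at 49.1 CPM in DMSO replicate 1 against 10.5 and 8.23 CPM. Ribosomal RNA took 2.18% and 2.55% of the counts of the number-1 libraries and 0.898% to 1.40% of the others. RGPD5, also in that group, and RGPD8, lowest in DHE replicate 1, are near-identical copies whose reads may be split between them. RGPD5 was listed at 0 in DMSO replicate 2 and DHE replicate 3. HSPG2, the gene of the basement membrane proteoglycan perlecan, was at 1338 CPM in DHE replicate 1 and at 2001 and 1948 CPM in the other 2, and ONECUT1, a liver transcription factor gene, at 29.6, 44.0 and 43.3 CPM. HSPG2 (edgeR adjusted p = 0.331) and ONECUT1 (edgeR adjusted p = 0.0753) were not called by the main edgeR fit of all 6 libraries. Both were called higher without DHE replicate 1 (edgeR adjusted p = 0.00153 and 8.63e-04). For ONECUT1 the call did not require leaving a library out. DESeq2 called it higher with all 6 libraries (adjusted p = 0.0294). So did edgeR when low-count genes were kept (adjusted p = 0.0235) or when replicate blocks were fitted (adjusted p = 0.039). RN7SL1 (-2.30) and RN7SL2 (-2.22), not called with all 6 libraries, were called lower on the log2 scale without DHE replicate 1 (edgeR adjusted p = 0.00706 and 0.00659). RNA28S5 (-0.93, edgeR adjusted p = 4.39e-04) and RNA18S5 (-0.54, edgeR adjusted p = 0.0479) were also called lower without it. Without both number-1 libraries RN7SL1 (-1.03), RN7SL2 (-1.02) and RNA28S5 (-0.64, edgeR adjusted p = 3.17e-07) were called lower and RNA18S5 was not (-0.19, edgeR adjusted p = 0.113). Without DMSO replicate 1 and DHE replicate 1 together, 1794 genes were higher and 1690 lower, against the counts given next for all 6 libraries.

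**Figure D1:**
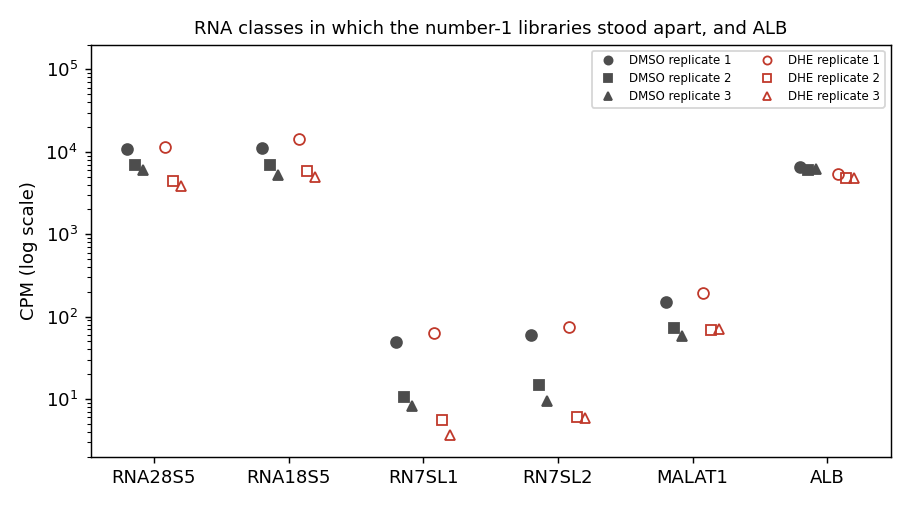
CPM on a log scale of 5 RNA species that were high in the number-1 libraries, with ALB for comparison; each symbol is 1 library, grey for DMSO and open red for DHE. Circles, the number-1 libraries, lie highest for RNA28S5, RNA18S5, RN7SL1, RN7SL2 and MALAT1 in both groups. ALB separates by treatment, although its circle is also the highest of each group, by a smaller margin.

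DHE changed many transcripts, most of them by small amounts. Of 14492 genes tested with edgeR's quasi-likelihood test, 3803 (26.2%) passed an adjusted p of 0.05 (Benjamini-Hochberg over all tested genes), 1945 of them higher (13.4%) and 1858 lower (12.8%). At least 1.5-fold changes were fewer: 294 genes rose that far (2.03%) and 466 fell (3.22%), and 69 (0.476%) and 167 (1.15%) did so by at least 2-fold. The groups did not overlap, all 3 libraries of one lying above all 3 of the other, for 41.6% of tested genes. The interquartile range of all log2 fold changes (DHE minus DMSO throughout) ran from -0.20 to 0.17, around a median of -0.003. These shares are the background against which the gene groups below are read, and a bulk culture cannot tell less RNA per cell from fewer cells of a kind. The lists and their members were chosen with earlier results of these data known. Some lists hold genes also named among the largest changes, so their counts are descriptions and not separate evidence. Limma on log2(TPM + 1) called 497 genes higher and 448 lower, of which 905 were among the 3803.

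Shares of rises and falls depended on the expression level. Between 20 and 100 CPM, 18.3% of genes rose and 13.8% fell, and from 100 CPM upward 22.3% and 17.6%. At low levels falls outnumbered rises: 4.44% rose and 9.91% fell between 1 and 5 CPM, where the median absolute log2 change of called genes was 0.89, against 0.26 from 100 CPM upward. Of 825 tested long noncoding RNAs 3.64% rose and 8% fell, and of 13032 protein-coding genes 14.3% rose and 13.3% fell.

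The genes with the largest rises encode ligands, receptors and structural proteins. Genes in the paragraphs on the largest rises and falls were chosen among called genes whose groups did not overlap. Such separation is therefore given by the choice, and it was seen in 41.6% of all tested genes. TGFB2, a ligand of the TGF-beta receptors on chromosome 1 (218345336 to 218444619, GRCh38), stood at 12.2, 10.7 and 12.5 CPM in DMSO replicates 1 to 3 and at 25.6, 27.6 and 26.1 CPM in DHE. All DHE libraries lay above all DMSO libraries, a rise of 1.16 ± 0.09 on the log2 scale (SE, n = 3 libraries per group here and below; edgeR adjusted p = 3.87e-06). LEFTY2, a secreted NODAL antagonist, went from 3.47, 3.85 and 4.34 CPM to 7.25, 10.5 and 8.05 CPM. DHE replicate 2 was the highest, and the groups did not overlap (1.14 ± 0.16, edgeR adjusted p = 3.10e-04). SYNM, the intermediate filament gene synemin, stood at 57.3, 64.2 and 61.0 CPM in DMSO and at 131, 133 and 137 CPM in DHE. Each group was tight, and the rise was 2.20-fold (1.14 ± 0.06, edgeR adjusted p = 1.07e-07).

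Further genes rose by about 2-fold. PTHLH, the parathyroid hormone-like hormone gene, went from 23.9, 18.5 and 19.5 CPM to 43.8, 41.9 and 42.7 CPM (1.05 ± 0.09). FZD4, a Wnt receptor, rose 2.03-fold, SGK1, a serum- and glucocorticoid-regulated kinase, 2.18-fold, and TMEM27, now named CLTRN, 2.13-fold. In all 4 genes the lowest DHE library exceeded the highest DMSO library, as the choice of genes required. The genes that rose further still were NRP2, PCDH9, CER1, FLRT2, ADGRF2, THBS1, TUBA1A and MT2A, from 2.36-fold for MT2A to 3.16-fold for NRP2.

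Genes with the largest falls included regulators of the actin cortex and of lipoprotein lipase. C19orf80, now named ANGPTL8 and encoding a secreted inhibitor of lipoprotein lipase, stood at 45.7, 50.1 and 51.1 CPM in DMSO and at 23.5, 20.9 and 20.7 CPM in DHE. The groups were far apart and DHE replicate 1 was the highest of its group (-1.18 ± 0.08, edgeR adjusted p = 9.85e-07). CORO1A, an actin-binding coronin, fell from 11.1, 12.1 and 10.5 CPM to 6.01, 4.76 and 4.05 CPM, and RAC2, a small GTPase best known from blood cells, from 9.88, 7.51 and 10.4 CPM to 4.89, 4.13 and 3.47 CPM. NOSTRIN, which binds nitric oxide synthase, fell 2.41-fold, TBC1D10C 2.25-fold, LRFN1 2.25-fold, NINJ2 2.26-fold and TMEM91 2.35-fold. For each of these 8 genes every DHE library lay below every DMSO library, as the choice of genes required. CORO1A and RAC2 are also expressed in leukocytes, whose marker sum was lower in DHE as given above; its part in these results was not tested. The 8 larger falls ran from 2.47-fold for BAIAP2L2 to 3.56-fold for RASL11A, with TMC8, SLC1A7, FER1L4, CDC42EP5, BHLHE41 and SLC27A1 in between.

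**Figure D2:**
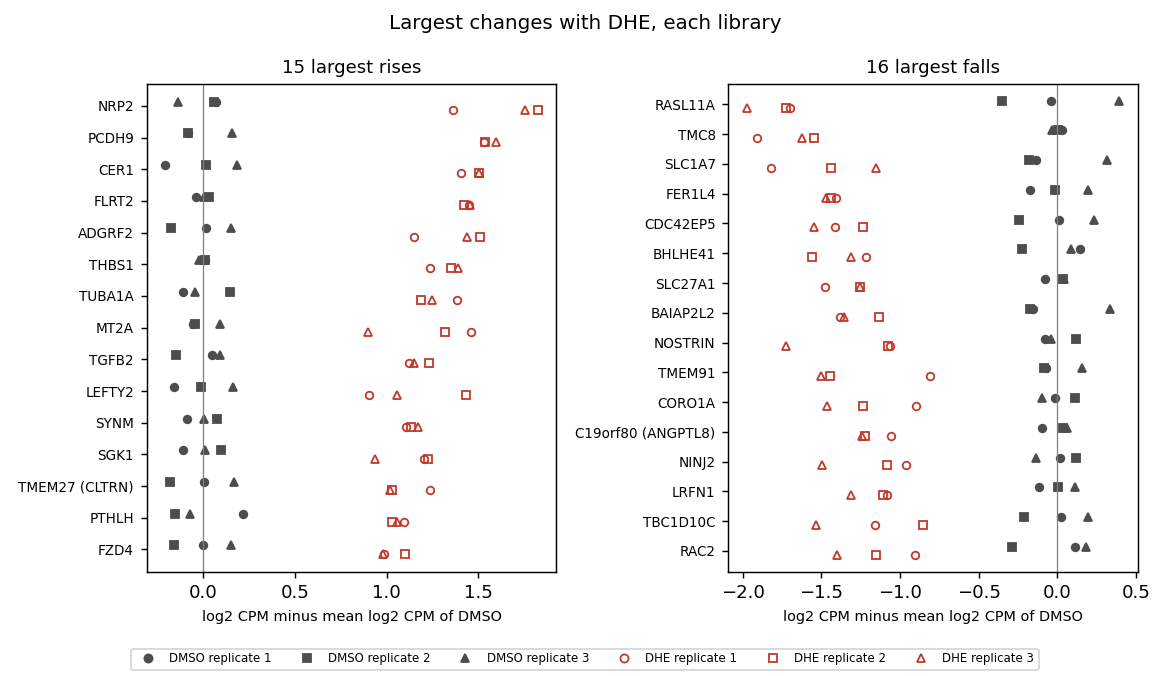
The 15 largest rises (left) and 16 largest falls (right) among called genes without overlap of the groups and with a mean level of 5 CPM or more; each symbol is 1 library, on log2 CPM relative to the DMSO mean of that gene, grey for DMSO and open red for DHE. By this choice the DHE libraries lie clear of the DMSO libraries in every row, with NRP2 and RASL11A at the extremes.

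Among abundant mRNAs, actin genes gained most. Levels per transcript length (TPM) rose most for ACTB, the cytoplasmic beta-actin gene, from a mean of 3667 to 4828 TPM, and for ACTG1, the gamma-actin gene, from 1907 to 2302 TPM. ACTB stood at 3503, 3239 and 3557 CPM in DMSO and at 4457, 4429 and 4362 CPM in DHE (0.36 ± 0.05, edgeR adjusted p = 4.49e-04). The groups did not overlap, which the choice of the largest gains required. MT2A, a metallothionein, gained 353 TPM, HSPA8, the constitutive HSP70, 288 TPM, NUPR1, a stress-induced chromatin protein, 232 TPM, and IGFBP7, a secreted binding protein, 221 TPM. IGFBP7 rose from 203, 203 and 212 CPM to 314, 313 and 309 CPM (0.60 ± 0.05), with little spread inside either group. MYL6 and PTMA also gained, at 250 and 238 TPM. The calls of ACTG1 (adjusted p = 0.176) and MYL6 (adjusted p = 0.113) ended with limma on log2(TPM + 1), that of MYL6 without DMSO replicate 1, 2 or 3 (edgeR adjusted p = 0.102, 0.0915 and 0.0797) and that of PTMA without DMSO replicate 2 or 3 (edgeR adjusted p = 0.0543 and 0.0604).

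Among the abundant mRNAs that lost most were a translation factor and plasma protein genes. EIF4A2, one of the paralogous helicases of cap-dependent translation, on chromosome 3 (186783577 to 186789897), fell from 1570, 1631 and 1614 CPM to 1012, 949 and 999 CPM (-0.70 ± 0.05, edgeR adjusted p = 2.49e-06). Its paralogue EIF4A1, looked up after these values were seen, had overlapping groups at 1060, 1061 and 1087 CPM against 1080, 1003 and 1012 CPM (-0.05 ± 0.05, edgeR adjusted p = 0.498). AHSG, the fetuin-A gene, fell from 2436, 2299 and 2499 CPM to 1873, 1817 and 1808 CPM (-0.40 ± 0.05). GAPDH (-1085 TPM), ALB (-940 TPM), RPL3 (-664 TPM), IGF2 (-609 TPM) and RPS16 (-583 TPM) also lost, with log2 changes of -0.15 to -0.32. None of these 5 was called by limma on log2(TPM + 1), with adjusted p = 0.579 for GAPDH, 0.0719 for ALB, 0.112 for RPL3, 0.250 for IGF2 and 0.390 for RPS16. Without DMSO replicate 1, 2 or 3, or DHE replicate 2 or 3, GAPDH (edgeR adjusted p = 0.0734, 0.102, 0.170, 0.118 and 0.141) and RPS16 (edgeR adjusted p = 0.0677, 0.102, 0.180, 0.179 and 0.173) were not called either.

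HIF binds DNA at the core ACGTG, and stretches of 100 bases upstream of 4 members of the HIF target list are shown with that core in capitals, read on either strand (CACGT is the same core on the other strand), because they bear it within the 250 bases before the RefSeq start in GRCh38.p14 and belong to genes that passed the test. They are, with region and strand, ANGPTL4 (chr19:8363905-8364004, plus), LOX (chr5:122077239-122077338, minus), PFKFB3 (chr10:6202778-6202877, plus) and BHLHE41 (chr12:26125038-26125137, minus), each printed 5′ to 3′ along the gene.
ANGPTL4: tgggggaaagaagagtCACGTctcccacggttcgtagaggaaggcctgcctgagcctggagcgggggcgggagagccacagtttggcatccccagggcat
LOX: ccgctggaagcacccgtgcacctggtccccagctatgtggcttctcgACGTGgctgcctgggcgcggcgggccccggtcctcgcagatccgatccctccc
PFKFB3: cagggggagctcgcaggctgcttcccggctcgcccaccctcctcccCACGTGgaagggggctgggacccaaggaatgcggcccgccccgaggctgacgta
BHLHE41: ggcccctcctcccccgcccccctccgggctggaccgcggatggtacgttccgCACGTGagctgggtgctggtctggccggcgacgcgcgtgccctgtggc
In PFKFB3 and BHLHE41 the core lies in the palindrome CACGTG, which holds it on both strands.

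Among 45 tested HIF targets, with a median of -0.20, 23 were called lower (51.1%) and 4 higher (8.89%), against 12.8% and 13.4% of all genes. By limma on log2(TPM + 1) these counts were 12 and 1, and the count of higher members was 1 without DMSO replicate 1 and 2 without DMSO replicate 2, DMSO replicate 3 or DHE replicate 3. Of 38 tested members with a promoter in the RefSeq table, 22 (57.9%) held the core in the window. It was in 22.4% of the 11321 promoters of tested genes and 18.5% of all 35116 promoters there. Of list members it was held by 12 of the 19 called lower and by 3 of the 4 called higher. Among all genes called lower 24.9% held it and among all called higher 19.9%. Its part in the changes was not tested. The 4 genes shown above did not move together: ANGPTL4, LOX and BHLHE41 fell and PFKFB3 rose. ANGPTL4, a lipoprotein lipase inhibitor, stood at 177, 177 and 189 CPM in DMSO and 82.1, 91.0 and 87.8 CPM in DHE. LOX, which crosslinks collagen, stood at 425, 414 and 417 CPM and at 282, 278 and 284 CPM. In both the groups were separated by many times their own spread. CITED2, which competes with HIF for its coactivator, fell from 122, 119 and 126 CPM to 77.5, 79.4 and 77.6 CPM (-0.64 ± 0.05), and CA12, a membrane carbonic anhydrase, from 39.3, 43.0 and 38.1 CPM to 20.9, 19.7 and 22.7 CPM (-0.93 ± 0.08).

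Genes of the plasminogen system, the proteases and inhibitors that dissolve fibrin and matrix, changed in both directions. PLAUR, the receptor that holds urokinase on the cell surface, fell from 14.2, 17.5 and 13 CPM to 9.59, 9.36 and 7.29 CPM (-0.77 ± 0.14, edgeR adjusted p = 0.00125). SERPINF2, the gene of the plasmin inhibitor alpha-2-antiplasmin, rose from 122, 130 and 140 CPM to 159, 179 and 176 CPM (0.40 ± 0.06, edgeR adjusted p = 6.53e-04). No library of either group overlapped the other for these genes. Altogether 6 of 22 tested genes of the system were lower (27.3%) and 2 higher (9.09%), against 12.8% and 13.4% of all genes. The median was -0.11. Limma on log2(TPM + 1) called 3 lower and 0 higher, and there SERPINF2 (adjusted p = 0.0607) lost its call.

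Heat shock factors bind inverted repeats of GAA, and promoter stretches of 4 chaperones that rose are shown because they hold GAANNTTC, in capitals: HSPA8 (chr11:123062137-123062236, minus), DNAJA1 (chr9:33025029-33025128, plus), CHORDC1 (chr11:90223050-90223149, minus) and HSP90AA1 (chr14:102087074-102087173, minus), again 5′ to 3′ along the gene in GRCh38.p14.
HSPA8: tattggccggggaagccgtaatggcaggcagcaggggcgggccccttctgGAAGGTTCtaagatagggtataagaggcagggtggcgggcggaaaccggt
DNAJA1: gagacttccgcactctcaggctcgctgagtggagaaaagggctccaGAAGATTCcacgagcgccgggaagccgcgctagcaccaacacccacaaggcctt
CHORDC1: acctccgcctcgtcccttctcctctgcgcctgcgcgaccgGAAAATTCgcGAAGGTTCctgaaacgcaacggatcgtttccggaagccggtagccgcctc
HSP90AA1: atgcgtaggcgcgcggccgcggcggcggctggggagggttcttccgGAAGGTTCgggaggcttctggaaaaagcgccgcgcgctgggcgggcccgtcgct
CHORDC1 has a pair of such repeats in the stretch shown.

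Of 29 tested cytosolic chaperones, with a median of 0.19, 15 rose (51.7%) and 0 fell, against 13.4% and 12.8% of all genes. The counts were 9 and 0 by limma on log2(TPM + 1), and 1 member was lower without DHE replicate 1. The repeat was present in the promoters of 10 of 25 tested members (40.0%) and of 7 of the 14 called higher that had a promoter in the table. It was in 4.13% of the promoters of tested genes and 5.78% of all promoters there. Among all genes called higher 4.01% held it, and its part in the rises was not tested. FKBP4, an HSP90 cochaperone, stood at 155, 151 and 150 CPM in DMSO and at 233, 221 and 228 CPM in DHE (0.58 ± 0.05, edgeR adjusted p = 4.71e-06). DNAJA1, an HSP40 cochaperone, rose from 167, 152 and 157 CPM to 268, 238 and 240 CPM (0.65 ± 0.06). CHORDC1, which binds HSP90, rose from 25.2, 22.8 and 23.9 CPM to 42.6, 40.5 and 38.8 CPM (0.76 ± 0.07). DHE replicate 1 was the highest of its group in all 3 genes, and none overlapped DMSO.

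Sterol synthesis, lipoprotein and fatty acid genes took different directions. In cholesterol synthesis 21 of 25 tested members rose (84%) and 0 fell (median 0.38), against 13.4% and 12.8% of all genes. Limma on log2(TPM + 1) called 13 higher and 0 lower, and with edgeR 1 was lower without DMSO replicate 1. LSS, which closes the sterol rings, rose from 104, 105 and 114 CPM to 139, 144 and 152 CPM (0.43 ± 0.06), and SQLE, the squalene epoxidase, from 79.6, 81.0 and 81.1 CPM to 109, 104 and 103 CPM (0.39 ± 0.05). Groups did not overlap in either. The sterol regulatory element, searched as TCACNCCAC, was in the promoter of 1 of 18 tested members (5.56%). It was in 0.901% of the promoters of tested genes, 0.69% of those of all genes called higher and 0.883% of all promoters.

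Of 46 tested fatty acid oxidation and lipid droplet genes 20 fell (43.5%) and 2 rose (4.35%), against 12.8% and 13.4% of all genes. The list median was -0.22, and limma on log2(TPM + 1) called 6 lower and 1 higher. PLIN2, the main coat protein of lipid droplets in liver cells, stood at 1978, 1966 and 2044 CPM in DMSO and at 1516, 1419 and 1423 CPM in DHE. Both groups were tight and did not overlap (-0.46 ± 0.05, edgeR adjusted p = 6.54e-05). HILPDA, which inhibits droplet lipolysis, fell from 54.9, 58.5 and 55.0 CPM to 35.7, 34.2 and 36 CPM (-0.67 ± 0.06). ACADVL, the first enzyme of mitochondrial beta-oxidation of long chains, fell from 793, 832 and 848 CPM to 556, 565 and 567 CPM (-0.55 ± 0.05). SLC27A1, a fatty acid transporter, fell from 16.3, 17.7 and 17.8 CPM to 6.20, 7.22 and 7.23 CPM. Against this direction ACOX3, a peroxisomal acyl-CoA oxidase, rose from 35.1, 34.5 and 33.3 CPM to 49.8, 53.4 and 52.0 CPM (0.59 ± 0.06, edgeR adjusted p = 3.51e-05).

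Lipoprotein genes went both ways, with 4 of 24 tested members higher (16.7%) and 6 lower (25%), against 13.4% and 12.8% of all genes. APOB, the structural protein of VLDL and LDL, stood at 1126, 1236 and 1068 CPM in DMSO and at 1423, 1793 and 1764 CPM in DHE (0.54 ± 0.08, edgeR adjusted p = 5.71e-04). DHE replicate 1 was the lowest of its group and still exceeded every DMSO library. APOH rose from 37.9, 35.4 and 34.5 CPM to 59.3, 50.6 and 50.4 CPM (0.57 ± 0.08), and LIPC, the hepatic lipase, fell from 47.9, 47.2 and 55.1 CPM to 31.7, 38.3 and 34.8 CPM (-0.52 ± 0.08). The count of lower members was 3 without DMSO replicate 3 and 2 by limma on log2(TPM + 1), which called 4 higher.

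Many genes for plasma proteins fell. In coagulation and complement 15 of 43 tested members fell (34.9%) and 4 rose (9.3%), against 12.8% and 13.4% of all genes. The list median was -0.15, and limma on log2(TPM + 1) called 7 lower and 5 higher. F10, coagulation factor X, stood at 105, 103 and 102 CPM in DMSO and at 71.9, 64.2 and 70.5 CPM in DHE (-0.58 ± 0.06, edgeR adjusted p = 1.84e-05), and F7, factor VII, at 93.2, 94.8 and 90.2 CPM and at 69.1, 63.6 and 67.4 CPM (-0.48 ± 0.05). Neither clotting factor overlapped between groups. KNG1, the kininogen gene, fell from 30.8, 32.9 and 32.5 CPM to 20.4, 19.3 and 18.4 CPM (-0.73 ± 0.08). MASP1, a protease of the lectin pathway of complement, fell from 98.1, 102 and 99.4 CPM to 59.3, 67.7 and 70.2 CPM (-0.60 ± 0.06). SERPING1, the C1 inhibitor, fell from 11.7, 12.1 and 12.2 CPM to 6.13, 6.33 and 5.45 CPM (-1.01 ± 0.11). VTN, the adhesive plasma protein vitronectin, was among the 4 that rose.

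Acute phase and binding proteins followed, with 10 of 25 tested members lower (40%) and 3 higher (12%), against 12.8% and 13.4% of all genes. Limma on log2(TPM + 1) called 4 lower and 2 higher, and the list median was -0.12. AZGP1, a zinc-binding glycoprotein, fell from 70.4, 66.7 and 67.1 CPM to 55.5, 53.2 and 50 CPM (-0.36 ± 0.06). A2M, a broad protease inhibitor, fell from 591, 630 and 570 CPM to 464, 483 and 498 CPM (-0.31 ± 0.05). HPX, the heme carrier hemopexin, rose from 9.03, 12.2 and 10.1 CPM to 18.6, 16.6 and 16.7 CPM (0.72 ± 0.12, edgeR adjusted p = 6.92e-04). The groups of these genes did not overlap, and the call of A2M ended with limma on log2(TPM + 1) (adjusted p = 0.154).

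**Figure D3:**
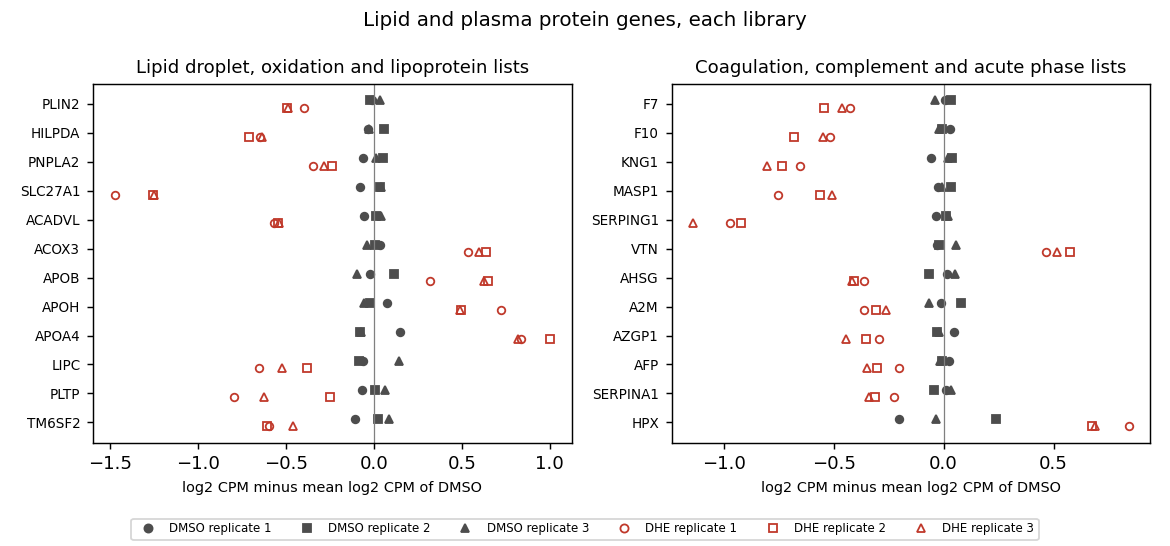
Members of the lipid lists (left) and of the plasma protein lists (right), each symbol 1 library on log2 CPM relative to the DMSO mean of the gene, grey for DMSO and open red for DHE. ACOX3, APOB, APOH, APOA4, VTN and HPX lie to the right of 0 in DHE and the other 18 genes to the left.

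Ligands, receptors and antagonists of the TGF-beta superfamily changed in both directions. In the list of NODAL and TGF-beta ligands and antagonists 11 of 31 tested members rose (35.5%) and 5 fell (16.1%). Shares over all genes were 13.4% and 12.8%. The list median was 0.11, and limma on log2(TPM + 1) called 4 higher and 2 lower. Its risers include TGFB2, CER1 and LEFTY2, also named above among the largest rises. Leaving out DMSO replicate 1 or 3 left 3 lower members, and leaving out DMSO replicate 2 or DHE replicate 3 left 2. Among the ligands, TGFB2 rose as described, INHBB, a subunit of activin B, fell from 130, 136 and 130 CPM to 99.3, 96.9 and 101 CPM (-0.41 ± 0.05), and GDF15, a stress-induced ligand, fell from 731, 700 and 727 CPM to 551, 539 and 518 CPM (-0.42 ± 0.05). CER1 and LEFTY2, both secreted antagonists of NODAL, rose to 2.75-fold and 2.21-fold of their DMSO levels. LTBP2, a matrix protein of the latent TGF-beta binding family, rose 1.41-fold, a call that ended with limma on log2(TPM + 1) (adjusted p = 0.0728).

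In the BMP list 10 of 27 tested members were higher (37%) and 4 lower (14.8%), against 13.4% and 12.8% of all genes. The list median was 0.17, and limma on log2(TPM + 1) called 4 higher and 1 lower. ACVR1, a type I receptor, stood at 105, 105 and 99.7 CPM in DMSO and at 159, 159 and 154 CPM in DHE (0.61 ± 0.05, edgeR adjusted p = 4.66e-06). BMPR2, the type II receptor, rose from 69.4, 73.2 and 67.0 CPM to 102, 109 and 102 CPM (0.58 ± 0.06), and BAMBI, a pseudoreceptor that blocks signalling, from 28.3, 31.2 and 28.8 CPM to 45.3, 48.0 and 54.1 CPM (0.74 ± 0.08). The ligand BMP2 fell from 47.6, 42.3 and 47.1 CPM to 29.1, 33.2 and 31.7 CPM (-0.54 ± 0.08, edgeR adjusted p = 2.50e-04). None of these 4 genes overlapped between groups. Of the inhibitors of differentiation that BMP signals induce, ID1 fell by 0.27 and ID4 rose from 2.02, 2.45 and 1.81 CPM to 3.68, 5.39 and 4.96 CPM (1.16 ± 0.21). The call of ID1 ended with limma on log2(TPM + 1) (adjusted p = 0.117).

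Receptors and feedback regulators of the Wnt pathway were among the genes that rose. In this list 9 of 31 tested members rose (29%) and 6 fell (19.4%), against 13.4% and 12.8% of all genes. The list median was 0.14, and limma on log2(TPM + 1) called 3 higher and 1 lower. With edgeR it was 3 that fell without DMSO replicate 1, DMSO replicate 3 or DHE replicate 3. LGR5, the receptor for R-spondins, stood at 93.2, 97.5 and 95.2 CPM in DMSO and at 146, 140 and 148 CPM in DHE, tight and without overlap (0.60 ± 0.05, edgeR adjusted p = 5.18e-06). FZD4 rose from 17.2, 15.4 and 19.1 CPM to 34.0, 36.8 and 33.9 CPM, and NKD1, a feedback inhibitor, from 8.19, 8.86 and 9.28 CPM to 13.9, 15.5 and 17.3 CPM (0.83 ± 0.11). WLS, needed to secrete Wnt ligands, fell from 49.9, 54.8 and 53.7 CPM to 38.2, 39.0 and 34.7 CPM (-0.50 ± 0.07, edgeR adjusted p = 2.13e-04). CTNNB1, the beta-catenin gene, rose 1.24-fold and RNF43, a ligase that removes Frizzled receptors, 1.35-fold. These last calls ended with limma on log2(TPM + 1) (adjusted p = 0.0704 for CTNNB1 and 0.150 for RNF43).

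Of YAP and TEAD target genes many rose by small amounts, with 14 of 29 tested members higher (48.3%) and 2 lower (6.9%). Shares over all genes were 13.4% and 12.8%, and the list median was 0.18. On log2(TPM + 1) limma called 3 higher and 0 lower, and without DMSO replicate 1 or 3, or DHE replicate 1 or 3, 1 member was lower. TEAD2, one of the DNA-binding partners of YAP, stood at 83.3, 82.3 and 77.1 CPM in DMSO and at 110, 117 and 121 CPM in DHE (0.52 ± 0.06, edgeR adjusted p = 4.35e-05). AJUBA, a LIM protein that restrains the LATS kinases, rose from 82.7, 85.0 and 86.6 CPM to 115, 117 and 115 CPM (0.45 ± 0.05). CYR61, now named CCN1 and a matricellular YAP target, rose 1.27-fold and AMOTL2, which binds YAP, 1.29-fold, with no overlap in either. Limma on log2(TPM + 1) did not call these 2 genes (adjusted p = 0.0698 and 0.119).

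Actin genes shared that direction in part: 16 of 45 tested members rose (35.6%) and 7 fell (15.6%), at a median of 0.11. Shares over all genes were 13.4% and 12.8%. Limma on log2(TPM + 1) called 5 higher and 2 lower, and with edgeR 4 fell without DMSO replicate 3. SRF, the transcription factor that senses actin assembly, stood at 33.7, 34.8 and 32.7 CPM in DMSO and at 46.6, 47.7 and 50.8 CPM in DHE (0.52 ± 0.06, edgeR adjusted p = 1.19e-04). Its coactivator MKL1, now named MRTFA, rose from 86.6, 77.8 and 80.7 CPM to 102, 121 and 115 CPM (0.46 ± 0.07). Both lay above DMSO in every DHE library. CDC42EP5, an effector of the GTPase CDC42, fell from 12, 10.1 and 14 CPM to 4.47, 5.07 and 4.08 CPM, and BAIAP2L2, which bends membranes, from 13.2, 13 and 18.5 CPM to 5.64, 6.71 and 5.74 CPM. MTSS1, another membrane-bending protein, fell 1.32-fold, a call that ended with limma on log2(TPM + 1) (-0.35, adjusted p = 0.143).

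**Figure D4:**
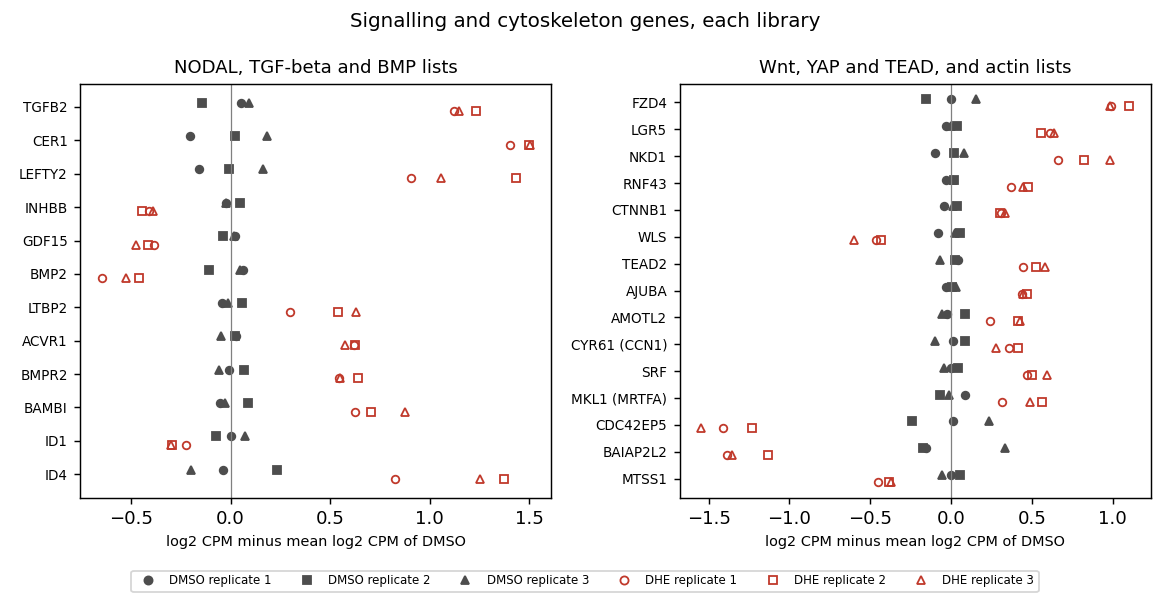
Members of the TGF-beta superfamily lists (left) and of the Wnt, YAP and TEAD, and actin lists (right), each symbol 1 library on log2 CPM relative to the DMSO mean of the gene, grey for DMSO and open red for DHE. INHBB, GDF15, BMP2, ID1, WLS, CDC42EP5, BAIAP2L2 and MTSS1 lie below 0 in every DHE library, and the other 19 genes above 0.

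Guidance and adhesion genes showed large changes of opposite sign within a family. Of 38 tested axon guidance genes 10 rose and 10 fell, 26.3% each way, against 13.4% and 12.8% of all genes. The list median was -0.01, and limma on log2(TPM + 1) called 5 higher and 2 lower. SEMA3A, a secreted semaphorin that binds neuropilins, stood at 110, 115 and 102 CPM in DMSO and at 59.7, 60.3 and 59.6 CPM in DHE (-0.87 ± 0.06, edgeR adjusted p = 9.05e-07). SEMA3B fell from 30.3, 30.6 and 32.7 CPM to 18.1, 19.9 and 18.4 CPM (-0.73 ± 0.08), while SEMA3G rose from 114, 122 and 115 CPM to 156, 166 and 167 CPM (0.48 ± 0.05). The 3 ligands of this semaphorin class thus differed in sign, and none overlapped between groups. NRP2, a neuropilin that serves as a semaphorin coreceptor, stood at 7.22, 7.17 and 6.26 CPM in DMSO and at 17.6, 24.3 and 23.2 CPM in DHE, with DHE replicate 1 the lowest of its group. EFNB2, a membrane-bound ephrin, rose from 22.2, 18.4 and 20.4 CPM to 34.3, 37.3 and 33.8 CPM (0.79 ± 0.09).

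Several cadherins rose, with 9 of 25 tested members higher (36%) and 3 lower (12%), against 13.4% and 12.8% of all genes. The list median was 0.12, and limma on log2(TPM + 1) called 4 higher and 0 lower. Without DMSO replicate 2 or DHE replicate 2, 1 was lower. CDH6, a cadherin of kidney and some carcinomas, stood at 132, 148 and 135 CPM in DMSO and at 240, 242 and 246 CPM in DHE, with no overlap (0.81 ± 0.05, edgeR adjusted p = 9.83e-07). PCDH9 rose from 7.98, 7.99 and 9.41 CPM to 24.3, 24.4 and 25.5 CPM, and CDH10 from 4.74, 4.44 and 5.41 CPM to 9.74, 8.13 and 8.4 CPM (0.84 ± 0.14).

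Among integrins and basement membrane genes falls outnumbered rises. Of 28 tested thrombospondins, integrins and their adaptors 10 fell (35.7%) and 4 rose (14.3%), against 12.8% and 13.4% of all genes. The list median was -0.11, and 6 fell without DMSO replicate 3 or DHE replicate 1. Limma on log2(TPM + 1) called 2 lower and 3 higher. ITGAV, the alpha-v integrin, rose from 546, 565 and 520 CPM to 682, 718 and 721 CPM (0.38 ± 0.05), and FERMT2, an integrin activator, from 21.3, 20.9 and 19.8 CPM to 30.4, 32.8 and 31.2 CPM (0.61 ± 0.08). ITGA5, the alpha subunit of the main fibronectin receptor, fell 1.25-fold and ITGB5 1.22-fold, calls that ended with limma on log2(TPM + 1) (adjusted p = 0.185 for ITGA5 and 0.209 for ITGB5). Of 35 tested collagens and basement membrane genes 9 fell (25.7%) and 3 rose (8.57%), at a median of -0.11. Limma on log2(TPM + 1) called 4 lower and 1 higher. NID2, a linker of laminin and collagen IV networks, fell from 18.7, 21.0 and 20.3 CPM to 9.17, 8.92 and 9.88 CPM (-1.10 ± 0.09, edgeR adjusted p = 7.39e-06). LAMB3, a laminin chain, fell from 38.0, 36.8 and 37.3 CPM to 22.7, 24.4 and 24.6 CPM (-0.64 ± 0.07), and COL2A1, the cartilage collagen, rose from 124, 122 and 116 CPM to 171, 181 and 176 CPM (0.55 ± 0.05). All of these separated the groups.

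Amino acid transporters changed in both directions, with 10 of 32 tested members lower (31.2%) and 6 higher (18.8%), against 12.8% and 13.4% of all genes. Limma on log2(TPM + 1) called 4 lower and 2 higher. Both chains of the large neutral amino acid exchanger rose: SLC7A5 from 225, 238 and 230 CPM to 287, 326 and 322 CPM (0.43 ± 0.06, edgeR adjusted p = 1.90e-04) and its heavy chain SLC3A2 from 82.5, 89.8 and 93.5 CPM to 117, 121 and 115 CPM (0.41 ± 0.06). SLC6A6, the taurine transporter, fell from 304, 309 and 287 CPM to 175, 179 and 186 CPM (-0.74 ± 0.05, edgeR adjusted p = 1.35e-06). SLC43A2, another carrier of large neutral amino acids, fell from 26.6, 28.1 and 26.5 CPM to 13.5, 14.3 and 19.3 CPM (-0.78 ± 0.12). DHE replicate 3 was the highest DHE library for SLC43A2 but still lay below DMSO.

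AKAP12, a scaffold that anchors protein kinase A and is counted in the cAMP list, was among the most abundant mRNAs that changed. It stood at 4359, 4387 and 4152 CPM in DMSO and at 1996, 2003 and 2007 CPM in DHE, nearly level within each group (-1.10 ± 0.05, edgeR adjusted p = 1.02e-07). Of 22 tested cAMP and CREB genes 3 rose and 4 fell, shares near those of all genes, and 2 and 1 by limma on log2(TPM + 1). DUSP1, a phosphatase that inactivates MAP kinases, rose from 75.7, 72.5 and 70.8 CPM to 97.7, 97.9 and 98.3 CPM (0.42 ± 0.05, edgeR adjusted p = 8.60e-05).

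In the MAPK feedback list 4 of 26 tested members rose (15.4%) and 6 fell (23.1%), or 2 and 2 by limma on log2(TPM + 1). Among all tested genes 13.4% rose and 12.8% fell. ETV4, an ETS factor induced by ERK, fell from 78.2, 76.3 and 74.6 CPM to 51.2, 52.1 and 51.5 CPM (-0.57 ± 0.05, edgeR adjusted p = 1.35e-05), and IER3, an early response gene, from 401, 329 and 347 CPM to 287, 250 and 233 CPM (-0.48 ± 0.08). DUSP14 rose from 9.19, 9.25 and 9.44 CPM to 15.9, 12.9 and 14.9 CPM (0.65 ± 0.10). Among 35 tested growth factors and receptors 7 rose (20%) and 6 fell (17.1%), or 2 and 1 by limma on log2(TPM + 1). KLB, the coreceptor for FGF19 and FGF21, rose from 32.6, 35.1 and 35.8 CPM to 50.9, 53.9 and 48.7 CPM (0.57 ± 0.07), PDGFC from 95.4, 89.3 and 98.8 CPM to 131, 123 and 120 CPM (0.40 ± 0.06), and IGFBP6, which binds IGF2, fell from 19.3, 18.7 and 18.6 CPM to 10.8, 9.23 and 11.7 CPM (-0.83 ± 0.10). No overlap was seen for these 6 genes.

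Of 36 tested nuclear receptors and bile acid genes 6 were higher and 6 lower, 16.7% each way and near the shares of all genes, or 2 and 1 by limma on log2(TPM + 1). HNF4A, the receptor that maintains hepatocyte genes, stood at 240, 241 and 237 CPM in DMSO and at 327, 338 and 357 CPM in DHE. NR5A2, a regulator of bile acid synthesis, rose from 152, 143 and 141 CPM to 195, 182 and 176 CPM (0.34 ± 0.05). NR1H3, the oxysterol receptor LXR alpha, fell from 47.7, 53.6 and 56.3 CPM to 31.4, 36.4 and 34.9 CPM (-0.62 ± 0.08, edgeR adjusted p = 1.40e-04). All 3 separated the groups.

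Metal and steroid response genes changed in both directions, and 13.4% of all tested genes rose and 12.8% fell. Among 18 tested metallothioneins and zinc transporters 3 rose (16.7%) and 4 fell (22.2%). It was 5 that rose without DHE replicate 1, and limma on log2(TPM + 1) called only MT2A. MT2A stood at 16.6, 16.8 and 18.5 CPM in DMSO and at 47.6, 43.1 and 32.3 CPM in DHE, with DHE replicate 3 the lowest of its group and above all DMSO libraries. Its family members are close in sequence, so reads may be shared among them. Of 18 tested glucocorticoid response genes 4 rose (22.2%) and 2 fell (11.1%). SGK1 rose from 3.84, 4.44 and 4.17 CPM to 9.55, 9.67 and 7.93 CPM, and KLF9, a hormone-induced factor, fell from 3.47, 3.54 and 4.53 CPM to 1.47, 1.73 and 2.25 CPM (-1.08 ± 0.23, edgeR adjusted p = 0.00379). On log2(TPM + 0.1) limma did not call KLF9 (adjusted p = 0.0675).

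Of 18 tested tubulin genes 2 rose and 3 fell, a share called (27.8%) near that of all genes, or 2 and 1 by limma on log2(TPM + 1). TUBA1A stood at 13.3, 15.9 and 13.9 CPM in DMSO and at 37.3, 32.5 and 33.9 CPM in DHE, TUBB3 rose from 120, 118 and 120 CPM to 154, 162 and 166 CPM (0.43 ± 0.05), and TUBA4A fell from 49.1, 49.8 and 51.9 CPM to 32.9, 30.0 and 33.9 CPM (-0.64 ± 0.07). Tubulin genes are close copies, so their reads may be split. LMNB1, a lamin of the nuclear envelope, rose from 86.7, 87.3 and 83.3 CPM to 111, 112 and 115 CPM (0.40 ± 0.05, edgeR adjusted p = 1.15e-04).

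Of the TMC family of membrane proteins 4 of 8 members could be tested and 3 fell. TMC8 stood at 52.5, 51.6 and 50.3 CPM in DMSO and at 13.7, 17.6 and 16.7 CPM in DHE, and TMC6 at 214, 232 and 221 CPM and at 94.1, 117 and 109 CPM (-1.06 ± 0.07, edgeR adjusted p = 1.15e-06). These neighbours on chromosome 17 overlap in the annotation (TMC6 from 78107397 to 78132427, TMC8 from 78130771 to 78142968), and whether counting used strand is not known, so part of their reads may be assigned to either. TMC4 fell by 0.22, a call that ended without DMSO replicate 1, 2 or 3 (edgeR adjusted p = 0.0536, 0.0795 and 0.0955) or DHE replicate 1 or 3 (edgeR adjusted p = 0.0643 and 0.0916), and TMC7 had overlapping groups (0.08 ± 0.07).

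Long noncoding RNAs of the list of nuclear and host-gene transcripts fell in 7 of 30 tested members (23.3%) and rose in 2 (6.67%), with a median of -0.14. Among all tested genes 12.8% fell and 13.4% rose. Of the 825 tested long noncoding RNAs 8% fell and 3.64% rose, with a median of -0.10. The count of lower members was 11 without DHE replicate 1, 4 without DHE replicate 2 and 3 by limma on log2(TPM + 1), and 1 rose without DMSO replicate 1, DMSO replicate 3 or DHE replicate 2. FER1L4, a transcribed pseudogene, stood at 31.0, 34.7 and 40.0 CPM in DMSO and at 13.2, 12.9 and 12.7 CPM in DHE, and MIR210HG, the host transcript of the hypoxia-induced miR-210, at 36.9, 38.2 and 41.4 CPM and at 20.6, 19.9 and 18.5 CPM (-0.99 ± 0.08, edgeR adjusted p = 4.77e-06). SNHG7 fell from 73.9, 80.4 and 86.7 CPM to 61.0, 55.7 and 54.3 CPM (-0.50 ± 0.07). DANCR rose from 62.4, 57.9 and 64.9 CPM to 84.2, 75.6 and 75.4 CPM (0.34 ± 0.06). Their groups did not overlap, unlike those of MALAT1, which followed the number-1 libraries.

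Genes of cell death and of the cell cycle moved by small amounts. Of 31 tested genes of the BCL2 family and the death receptors 7 rose (22.6%) and 2 fell (6.45%), with a median of 0.02. Among all tested genes 13.4% rose and 12.8% fell. By limma on log2(TPM + 1) the counts of this list were 1 and 0, and 4 rose without DMSO replicate 1, DMSO replicate 3 or DHE replicate 3. CFLAR, which restrains caspase-8 at death receptors, rose from 60.4, 64.8 and 63.8 CPM to 79.0, 82.2 and 92.8 CPM (0.43 ± 0.07). BCL2L13 fell from 67.6, 60.8 and 67.1 CPM to 53.9, 51.1 and 49.8 CPM (-0.34 ± 0.06). No library crossed between groups in these 2 genes. Of 41 tested cyclins, their kinases and inhibitors 7 rose and 5 fell, shares near those of all genes, and 0 and 0 by limma on log2(TPM + 1). The lower members numbered 3 without DMSO replicate 1, DMSO replicate 3, DHE replicate 2 or DHE replicate 3. CDK6, a G1 kinase, rose from 210, 224 and 208 CPM to 246, 273 and 282 CPM (0.32 ± 0.06), and CDKN2A, the locus of a CDK4 and CDK6 inhibitor, fell from 303, 316 and 302 CPM to 255, 240 and 252 CPM (-0.30 ± 0.05). With limma on log2(TPM + 1) the adjusted p was 0.1 for CFLAR, 0.170 for BCL2L13, 0.154 for CDK6 and 0.0916 for CDKN2A.

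In serine, one-carbon and nucleotide synthesis 4 of 32 tested members rose (12.5%) and 7 fell (21.9%), against 13.4% and 12.8% of all genes. The median was -0.05, and limma on log2(TPM + 1) called 1 higher and 0 lower. Without DMSO replicate 1 or DHE replicate 3 the members that fell numbered 4, and without DMSO replicate 3 or DHE replicate 2 they numbered 3. PHGDH, the first enzyme of serine synthesis, rose from 58.9, 55.1 and 58.9 CPM to 80.1, 65.5 and 72.7 CPM (0.34 ± 0.07, edgeR adjusted p = 0.00407). Both IMP dehydrogenases, which commit purines to guanine nucleotides, fell: IMPDH2 from 117, 115 and 123 CPM to 96.5, 89.4 and 96.0 CPM (-0.34 ± 0.05) and IMPDH1 from 34.9, 33.3 and 35.4 CPM to 27.1, 25.6 and 27.7 CPM (-0.37 ± 0.07). The calls of IMPDH2 (adjusted p = 0.0791) and IMPDH1 (adjusted p = 0.115) ended with limma on log2(TPM + 1). Among 25 tested histone lysine demethylases 5 rose and 1 fell (median 0.11), 24% called and near the share of all genes. By limma on log2(TPM + 1) the counts were 0 and 0, and 0 fell without DMSO replicate 2, DMSO replicate 3 or DHE replicate 3. KDM4A, a jumonji demethylase, rose from 65.1, 62.7 and 63.7 CPM to 84.3, 80.8 and 82.4 CPM (0.37 ± 0.05, edgeR adjusted p = 2.42e-04; adjusted p = 0.0583 by limma on log2(TPM + 1)).

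Proteasome and iron genes had few calls. Of 37 tested proteasome genes 3 rose and 1 fell. Without DMSO replicate 1, DMSO replicate 2 or DHE replicate 3, 1 proteasome gene rose, and 4 fell without DHE replicate 1 and 0 without any other single library. Of 24 tested iron genes 1 rose (3 without DHE replicate 1) and 3 fell, the riser being NCOA4, the receptor for ferritin breakdown, from 423, 402 and 389 CPM to 523, 492 and 500 CPM (0.32 ± 0.05). In the Notch list 2 of 28 rose and 5 fell, 25% called and near the share of all genes, with LFNG, a glycosyltransferase that tunes Notch receptors, falling from 26.8, 25 and 28.3 CPM to 17.7, 16.2 and 17.9 CPM (-0.63 ± 0.09, edgeR adjusted p = 2.15e-04). The Notch count of lower members was 3 without DMSO replicate 1, DMSO replicate 3 or DHE replicate 1, and that of higher members 4 without DHE replicate 1. On log2(TPM + 1) limma called 0 proteasome genes, 1 iron gene (NCOA4) and 1 Notch gene (LFNG).

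**Figure D5:**
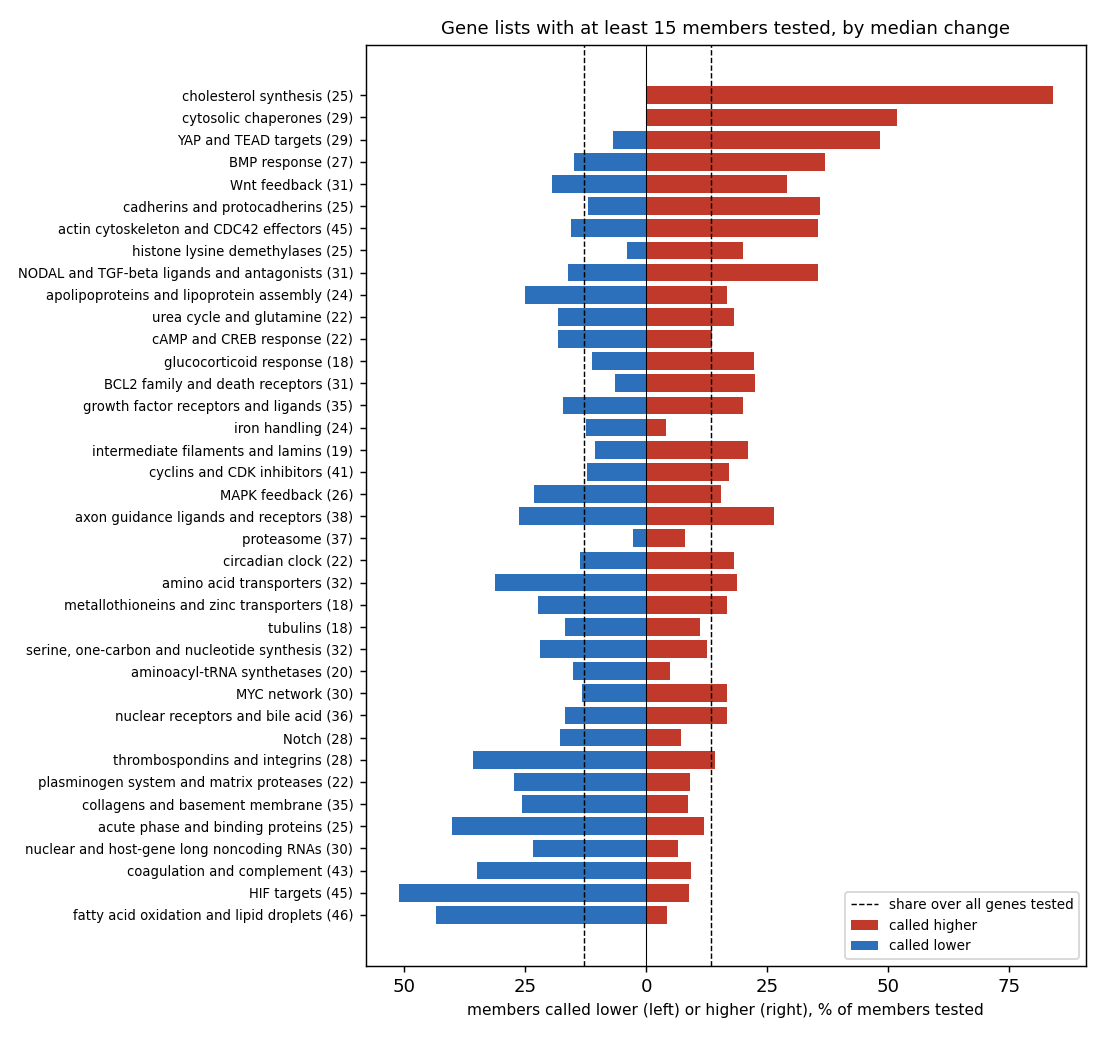
Percent of tested members called higher (red, right) or lower (blue, left) in the 38 lists with at least 15 tested members, ordered by median log2 fold change, with the number tested in parentheses; dashed lines mark 13.4% and 12.8%, the shares over all genes. Cholesterol synthesis and cytosolic chaperones have no bar to the left, and HIF targets and fatty acid genes have the longest bars there.

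Of all genes, 4 had at most 3 counts in every DHE library and at least 10 in every DMSO library, and 0 the reverse. ARMCX5-GPRASP2, a readthrough transcript on the X chromosome, had 56, 60 and 83 counts in DMSO and 0, 0 and 0 in DHE. GPRASP2, which it overlaps and which was chosen after its values were seen, went the other way, with 18, 0 and 17 counts in DMSO and 50, 52 and 71 in DHE, and both genes together held 2.24, 1.69 and 2.74 CPM in DMSO and 1.88, 1.64 and 2.07 CPM in DHE. Summed in this way, the groups overlapped. CLDN19, KCNE5 and MYO1G, at 0.274 to 0.725 CPM in DMSO, were the others, each with at most 3 counts in every DHE library.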

How the data were processed

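Gene tables of 6 hypoxic Hep3B libraries (3 DMSO, 3 DHE) were used; the 3 dose-set libraries were left out. Per the labels, RNA was taken up in TRIzol, polyA RNA was the molecule, and libraries were made with a NEBNext Ultra kit for Illumina. The authors deposited RSEM expected counts, per the file headers, with TPM values (a share of transcripts, scaled by effective length) in the same deposited tables, and the deposited transcript length and effective length of each gene gave the mean fragment length. The deposited FPKM values were not used. Per the submitters' processing notes, reads were placed on GRCh38. The sources used here do not give the aligner, tool versions, annotation release or strand setting. RSEM shares multimapping reads among genes, so 5.60% to 6.38% of the estimates were not whole.

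Expected counts were rounded to whole numbers and tested with edgeR 4.0.16 (R 4.3.3): filterByExpr by group with a minimum count of 10, TMM factors, no covariate, and a two-sided quasi-likelihood F-test with Benjamini-Hochberg adjustment at 0.05. CPM values use TMM-scaled library sizes. The coefficient of biological variation was 8.37%. On simulated data over 14492 genes for this comparison, 50 genes were changed at each fold size, far fewer than the 3803 called in the data. The fit recovered 50% of genes changed 1.3-fold and 66% of those changed 1.5-fold, then 88% (2-fold) and 90% (3-fold). There were 8 false calls among 155. With so few changed genes the adjusted p is stricter, so these rates may not hold for the data. Alternatives were other normalizations and filters, DESeq2 1.42.0, limma 3.58.1 (voom, or the log2 scale of TPM with a pseudocount), no ribosomal RNA genes, libraries left out, and the replicate number as a block.

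Named genes are the 16 largest rises and 16 largest falls among called genes without overlap of the groups and with a mean level of 5 CPM or more, the 8 largest gains and losses in mean TPM among called genes without overlap, up to 6 members of a gene list by smallest p, identity genes, genes that set DHE replicate 1 apart, and genes near 0 counts in 1 group. Some of these genes are not reported here. The members and lists were chosen with earlier results of these data known. Of 26475 genes in the tables, 25653 (96.9%) matched RefSeq GRCh38.p14, the source of coordinates and of promoters from 250 bases before to 50 after the start. Motifs were searched on both strands in the 250 bases before it. Up to 4 called genes a list with the motif are shown, by smallest p, with genes on chromosome 8 left out.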

Additional observations from a re-analysis of the deposited data

How the results depend on the processing

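Against 1945 genes higher and 1858 lower, limma on log2(TPM + 1) called 497 higher and 448 lower and limma on log2(TPM + 0.1) 486 and 436, which held 905 (23.8%) and 895 (23.5%) of the 3803 genes called by edgeR; the cause was not tested. When libraries were left out one at a time, 1329 to 2032 genes were higher and 1242 to 1948 lower, and every other alternative stayed within 1.5 times both counts, among them upper-quartile factors (1730 and 2061) and DESeq2 (2017 and 1910). Of 154 called genes named in the text, 119 were called under all 18 alternatives that tested them and 143 under all but the TPM ones. Among genes given a fold change, direction turned for RN7SL1, RN7SL2, RNA18S5 and RNA28S5, none called by the main edgeR fit. RNA28S5 was called lower with the replicate block, which also used all 6 libraries (-0.40, edgeR adjusted p = 0.0111). RN7SL1 and RN7SL2 went from 0.09 and 0.04 to -0.70 and -0.65 by limma-voom and to -0.55 and -0.51 by limma on log2(TPM + 1) and on log2(TPM + 0.1) alike. They went to -0.40 and -0.42 with the replicate block and to -1.03 and -1.02 without both number-1 libraries. With 1 library left out they ran from -2.30 to 1.36 and from -2.22 to 1.24. RNA18S5 (0.09) went to -0.01 by limma-voom and with the replicate block, -0.19 without both number-1 libraries and -0.54 to 0.45 with 1 left out, and RNA28S5 (-0.26) to -0.93 to 0.03 with 1 left out. Whether the replicate numbers pair the samples is not known. Over 10962 genes, deviations from the group means correlated at 0.26, 0.2 and -0.245 for numbers 1, 2 and 3. DMSO replicate 3 correlated best with DHE replicate 1 (0.161). Deviations from a mean of 3 libraries cancel within a group and so are not independent, and this check could not decide the pairing. With the replicate number as a block edgeR called 2260 higher and 2191 lower, 3781 of them shared with the fit without it; fatty acid genes then had 5 higher members, BCL2 and death receptor genes 4 lower, iron genes 2 higher and proteasome genes 2 lower. With 3 libraries per group, 50% of genes given a 1.3-fold change in the simulated data were recovered. Those data held far fewer changed genes than were called here, so this rate may not hold for the data. A gene without a call may still differ by that much.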
